A study of Homo sapiens with 48 samples.

Results

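Untreated H1975 cells were sequenced at the start of the experiment (0 h) and after 24 h in culture, and the report describes what differed between these time points. The members were chosen by label alone: 3 libraries of the 0 h group and 3 of the 24 h group, 6 of 48 in the series. H1975 is a human lung adenocarcinoma line whose EGFR gene carries an activating and a resistance mutation. Both groups received no agent, and the labels give RPMI-1640 medium with 10% fetal bovine serum. The other 14 groups, all taken at 24 h, received gefitinib, an inhibitor of the EGFR kinase, at 50 or 75 µM, the plant preparation CKI (compound kushen injection) at 1 or 2 mg/mL, a preparation named only YFSJ at 2.5 or 5 mg/mL, or a pairing of gefitinib with either preparation. The design text calls the 3 libraries of a group biological replicates. No source used here says what was done to the cells just before 0 h.

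Cells that have been plated or given fresh medium and serum respond to soluble and to mechanical signals. Growth factors in serum act through receptors such as EGFR on the RAS and ERK kinases, which switch on immediate early transcription factors within minutes and, after them, feedback inhibitors such as the Sprouty and SPRED proteins and the dual-specificity phosphatases. Attachment, spreading and serum lipids act through the actin cytoskeleton and the Hippo kinases on the co-activators YAP and TAZ, which bind DNA through TEAD proteins and on the co-activator MRTF, which works with the serum response factor SRF. Cells that leave the cycle often hold more of kinase inhibitors such as p27, the product of CDKN1B.

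Depth and identity were read first. The 6 libraries held 16447592 to 21846986 counts, and 3 counts corresponded to 0.147 to 0.193 CPM (counts scaled to a common library total, with TMM factors), a floor that covers counting error only. The labels' catalogue number belongs to MCF-7, a breast line. Yet the lung lineage factor NKX2-1 had a median of 56.3 CPM and EGFR 87.6 CPM. The luminal breast genes ESR1, PGR, TFF3, GATA3 and TFF1 had 0.195, 0, 0, 0.827 and 1.23 CPM. Of other lung lineage genes, FOXA2, FOXA1, NAPSA, SFTPB and SCGB1A1 had 12.9, 0.760, 0.849, 0.025 and 0 CPM. SFTPC, a marker of alveolar cells, was at 0.0736 CPM and PTPRC, a marker of blood cells, at 0.0245 CPM. At least 1 CPM was reached by 7 of 23 lung lineage and 8 of 16 luminal breast markers. The same level was reached by 1 of 18 liver, 3 of 15 blood cell and 4 of 11 fibroblast markers. Among the fibroblast genes COL1A1 and COL1A2 had medians of 451 and 92.8 CPM, and COL3A1, DCN and LUM had a median of 0.

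At 0 h, the first and second libraries differed from the third. The mitochondrial ribosomal RNA gene RNR2 took 1.22% and 1.69% of their counts, against 0.457% in library 3 and 0.464% to 0.582% at 24 h. The SD of the log2 ratio between libraries was 0.441 for libraries 1 and 3 at 0 h and 0.376 for 2 and 3, against 0.275 for 1 and 2 and 0.208 to 0.247 at 24 h. Genes with longest transcripts under 1000 bases had a median log2 change of 0.28 (n = 810 genes) and those of 8000 bases or more one of -0.18 (n = 1194 genes). Against library 3 alone these medians were 0.14 and -0.03. With a length correction 3537 genes were called in place of the 3980 given below, and the part of the RNR2 share was not tested. Most changes are therefore given against all 3 libraries at 0 h and again against library 3 alone, a reading in which the lone library is assumed to vary like the other groups. The wider reading also takes its SE and p from a spread shared by all 16 groups. That shared spread can understate the one at 0 h, where the libraries differed more than at 24 h. These readings share the 24 h libraries and library 3, so the narrower is not independent of the wider.

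With all 3 libraries at 0 h, 3980 of 15789 genes tested (25.2%) were called at an adjusted p under 0.05 by edgeR's quasi-likelihood test. At 24 h 1708 (10.8%) of them were higher and 2272 (14.4%) lower. Against library 3 alone 147 genes (0.931%) were called, 40 (0.253%) higher and 107 (0.678%) lower. Counts of list members against library 3 alone are to be read beside these narrower shares, also where only the wider shares are repeated. In 3714 genes (23.5%) no library of one time overlapped those of the other. The calls in both readings with the same direction numbered 132, of which 36 were higher and 96 lower, and 15 genes were called against library 3 only. The wider count rested on single libraries: it was 1070 without library 1 at 0 h, 6029 without library 3 at 0 h and 2607 without library 2 at 24 h. A fit of only the 6 untreated libraries called 93 genes. In it 86 of the genes followed here lost their call, among them CRABP2, CDKN1A, PTGS2 and ITGB3. For 46 of them the call, or its absence, stayed. Scaling to library size without TMM factors turned the share of higher calls from 42.9% to 62%, with 2364 higher and 1447 lower. The median log2 change over all genes was 0.001, and 0.013 against library 3 alone. Changes are log2 fold changes of 24 h minus 0 h ± SE, with n = 3 libraries at each time and n = 1 at 0 h in the narrower reading.

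**Figure D1:**
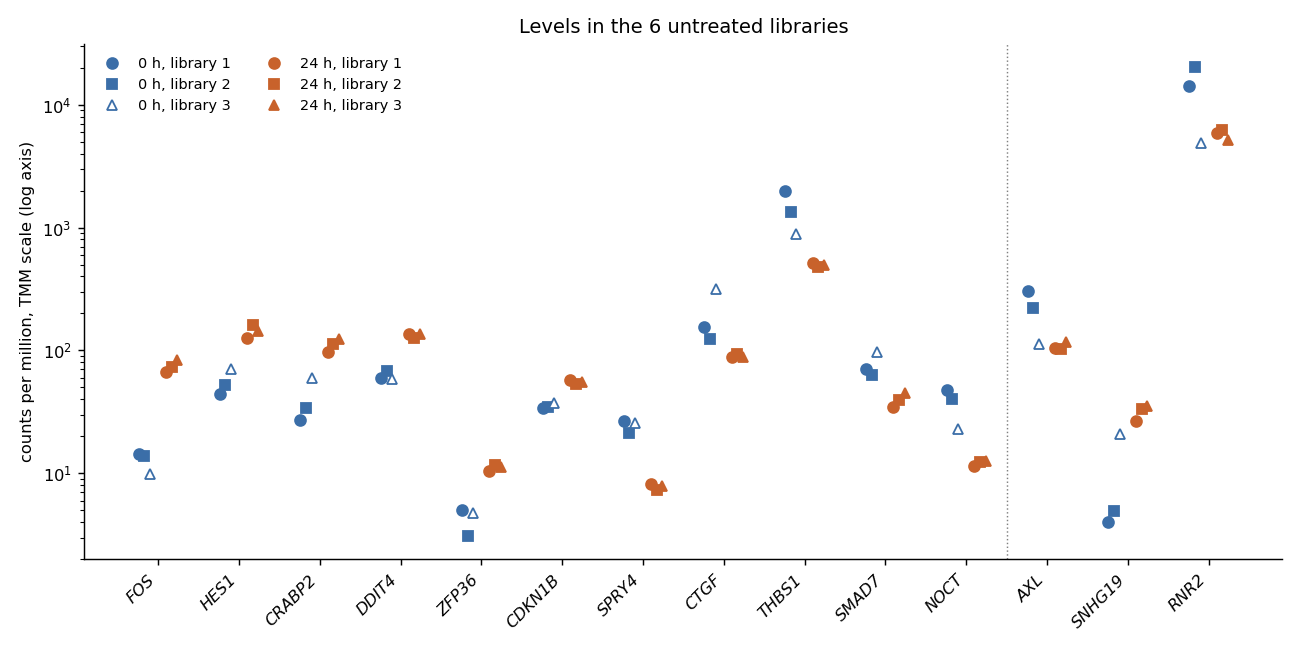
Level of 14 genes in each of the 6 untreated libraries, in CPM on a log axis, with 0 h in blue (library 3 open) and 24 h in orange. Most of these genes were named by a rule that asks for a call and for no overlap between the times. Left of the dotted line are 11 genes called against all 3 libraries at 0 h and against library 3 alone, in each of which the times did not overlap; to the right, AXL, SNHG19 and RNR2 had library 3 at 0 h nearer to the 24 h libraries than libraries 1 and 2 were.

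Many targets of YAP and TEAD were lower at 24 h. Of 27 tested members 18 were called lower and 0 higher (all genes: 14.4% and 10.8%), with a median change of -0.52. Against library 3 alone 10 were lower and 0 higher (all genes: 0.678% and 0.253%), with a median of -0.35. The summed level of the list was 6820, 5847 and 6459 CPM at 0 h and 4120, 4109 and 4227 CPM at 24 h, so the lowest library at 0 h stood above the highest at 24 h. Abundant members such as THBS1 and CYR61, given below, weigh more in this sum than sparse ones. With each library left out in turn 13 to 18 members were lower, and 0 or 1 higher.

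The TEAD proteins bind the hexamer GGAATG, and promoters of 4 members called in both readings that hold it are shown. THBS1, also called in both, held a copy 46 bases before the start and is not shown. Each line gives the 250 bases before the RefSeq start in GRCh38.p14, 5′ to 3′ on the gene's strand, with GGAATG or its reverse complement CATTCC in capitals.
CTGF (CCN2), chr6:131951373-131951622, minus strand: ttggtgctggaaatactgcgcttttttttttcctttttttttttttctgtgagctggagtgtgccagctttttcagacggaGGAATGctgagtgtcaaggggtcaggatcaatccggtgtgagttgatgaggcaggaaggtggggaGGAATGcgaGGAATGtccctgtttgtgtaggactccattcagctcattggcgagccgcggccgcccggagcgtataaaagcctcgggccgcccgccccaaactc
ANKRD1, chr10:90921088-90921337, minus strand: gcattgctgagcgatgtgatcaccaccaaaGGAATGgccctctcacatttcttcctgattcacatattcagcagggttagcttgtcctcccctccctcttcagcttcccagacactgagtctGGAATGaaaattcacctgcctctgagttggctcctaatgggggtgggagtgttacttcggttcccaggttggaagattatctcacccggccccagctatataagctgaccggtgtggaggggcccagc
AMOTL2, chr3:134374448-134374697, minus strand: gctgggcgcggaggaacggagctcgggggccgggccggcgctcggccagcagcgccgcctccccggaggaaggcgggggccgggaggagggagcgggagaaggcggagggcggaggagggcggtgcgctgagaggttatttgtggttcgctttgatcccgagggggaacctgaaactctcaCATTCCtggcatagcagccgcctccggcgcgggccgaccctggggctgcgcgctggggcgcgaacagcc
NUAK2, chr1:205321746-205321995, minus strand: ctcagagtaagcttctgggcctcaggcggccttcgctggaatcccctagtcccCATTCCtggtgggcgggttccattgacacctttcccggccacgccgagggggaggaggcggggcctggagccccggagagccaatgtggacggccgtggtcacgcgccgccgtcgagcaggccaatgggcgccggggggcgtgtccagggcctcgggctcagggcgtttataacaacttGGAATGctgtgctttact
In CTGF the 3 copies began 169, 104 and 95 bases before the start, in ANKRD1 220 and 128, in AMOTL2 69, and in NUAK2 197 and 18. Of the 27 tested members 19 had a promoter entry by symbol and 9 of these (47.4%) held the hexamer on either strand in at least 1 of their windows. Of the 9 members called in both readings 6 had an entry and 5 (83.3%) held it. Of all 27305 genes with an entry, 3902 (14.3%) held it in windows of the same length. The list was drawn up from known targets, several of which were found through such sites, so the share describes the list, and a match is not evidence of binding.

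CTGF, a secreted matricellular protein, had 156, 124 and 316 CPM in libraries 1, 2 and 3 at 0 h and 88.8, 93.5 and 88.9 CPM at 24 h. The times did not overlap, and library 3 was the highest at 0 h. CTGF fell by 1.14 ± 0.20 (adjusted p = 0.000148) and against library 3 by 1.81 ± 0.18 (adjusted p = 1.95e-08). Its relative CYR61 had 512, 524 and 984 CPM at 0 h and 400, 503 and 484 CPM at 24 h. The gap between the times was small in libraries 1 and 2. CYR61 fell by 0.54 ± 0.16 (adjusted p = 0.0116), a call that was lost without library 3 at 0 h or library 1 at 24 h, and by 1.09 ± 0.17 (adjusted p = 4.31e-05) against that library.

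ANKRD1, an ankyrin repeat protein, read 21.2, 21.9 and 38.3 CPM and then 17.4, 17.5 and 18.2 CPM. It fell by 0.63 ± 0.15 (adjusted p = 0.00169) and by 1.11 ± 0.15 against library 3 (adjusted p = 5.77e-06), and the wider call was lost without library 3. F3, which encodes tissue factor, the starter of coagulation, went from 87.9, 94.8 and 146 CPM to 70.4, 77.4 and 70.3 CPM, a fall of 0.59 ± 0.13 and against library 3 of 1.01 ± 0.14. CTGF, CYR61, ANKRD1 and F3 thus had their highest value of all 6 libraries in library 3 at 0 h. In GADD45A, a stress gene of the same list, that library stood alone, with 56, 64.7 and 159 CPM at 0 h and 56.9, 66.2 and 70.4 CPM at 24 h. Its change was -0.54 ± 0.21 (adjusted p = 0.0523, not called) and -1.30 ± 0.16 against library 3.

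Other targets did not depend on library 3. AMOTL2, an angiomotin relative that binds YAP, had 210, 159 and 216 CPM at 0 h and 117, 108 and 123 CPM at 24 h. It fell by 0.75 ± 0.09 (adjusted p = 6.97e-08) and by 0.90 ± 0.10 against library 3 (adjusted p = 1.02e-07). DLC1, a GTPase-activating protein gene, fell by 0.74 ± 0.10 and 0.72 ± 0.12 in the wider and the narrower reading, and the kinase gene NUAK2 by 0.62 ± 0.10 and 0.70 ± 0.13. THBS1, the matrix protein thrombospondin 1, was the steepest in the wider reading, from 1967, 1346 and 878 CPM to 516, 473 and 495 CPM. It fell by 1.5 ± 0.15 (adjusted p = 7.25e-09) and by 0.83 ± 0.15 against library 3 (adjusted p = 0.000571), so here library 3 was the 0 h library nearest to 24 h. Each of these 4 kept its call with any 1 of the 6 libraries left out. When only the 6 untreated libraries were fitted, AMOTL2, DLC1 and THBS1 kept their calls, while NUAK2, CTGF, CYR61, ANKRD1 and F3 lost theirs.

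Further members called with all libraries were not called against library 3. The receptor gene AXL had 306, 220 and 112 CPM at 0 h and 104, 103 and 117 CPM at 24 h, so library 3 lay inside the range at 24 h. Its change was -0.98 ± 0.19 (adjusted p = 0.000423) and against library 3 -0.05 ± 0.18 (adjusted p = 0.978). TGFB2, a ligand, stood at -0.58 ± 0.11 and -0.44 ± 0.14, and the Hippo kinase gene LATS2 at -0.22 ± 0.08 and -0.28 ± 0.11, values of like size in both readings. AMOTL1 went from -0.59 to -0.35, WWC1, an upstream Hippo regulator, from -0.55 to -0.24, PTPN14 from -0.47 to -0.08 and AJUBA from -0.30 to -0.12. The wider calls of AMOTL1, PTPN14, AJUBA and LATS2 were lost without library 1 at 0 h, that of PTPN14 also without library 3 at 24 h, and that of LATS2 also without library 3 at 0 h and libraries 1 and 3 at 24 h. TEAD1 itself was not called, at -0.26 ± 0.12 (adjusted p = 0.112) and -0.04 ± 0.16.

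**Figure D2:**
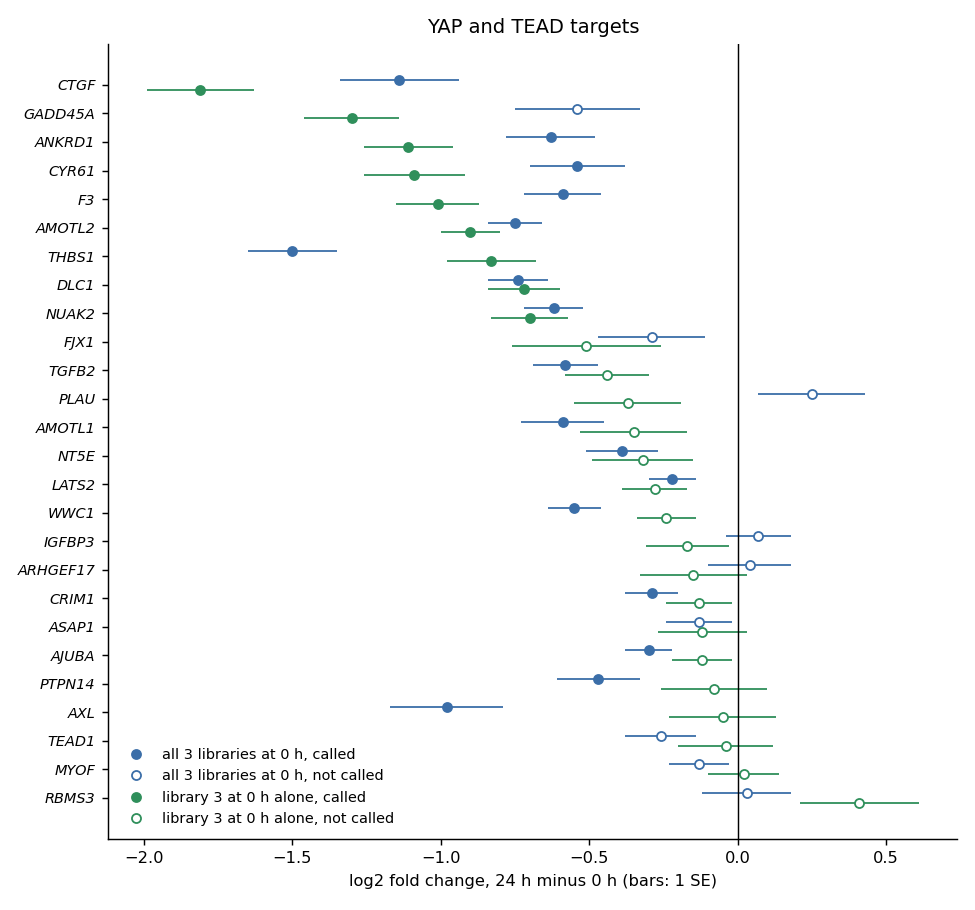
Log2 fold change of 24 h minus 0 h for 26 of the 27 tested YAP and TEAD targets, with bars of 1 SE, against all 3 libraries at 0 h (blue) and library 3 alone (green), filled where called. Genes from CTGF to NUAK2 were called against library 3, all lower, and AXL lies near 0 in that reading but at -0.98 in the wider one.

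Some feedback inhibitors and other outputs of ERK were lower as well (all genes in the wider reading: 14.4% lower and 10.8% higher). Of 25 tested members 10 fell and 1 rose, with a median of -0.28, and against library 3 alone 5 fell and 0 rose, with the same median of -0.28. Without library 1 at 0 h 6 fell, and leaving out any other library gave 7 to 11. SPRY4, a Sprouty protein that restrains receptor signalling to RAS, had 26.6, 21.2 and 25.4 CPM at 0 h and 8.14, 7.35 and 7.92 CPM at 24 h. All 3 libraries at 0 h stood far above 24 h, and SPRY4 fell by 1.64 ± 0.15 (adjusted p = 3.42e-10) and by 1.70 ± 0.19 against library 3 (adjusted p = 1.02e-07). SPRED3, of a related family of inhibitors, had 6.65, 5.26 and 4.42 CPM and then 2.55, 1.93 and 1.79 CPM. It fell by 1.36 ± 0.21 (adjusted p = 1.59e-05) and by 1.07 ± 0.28 (adjusted p = 0.0432).

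The phosphatase genes of the family did not move alike. DUSP5, whose product acts on nuclear ERK, went from 90.5, 74.5 and 89.1 CPM to 52.5, 48.6 and 47.6 CPM. It fell by 0.77 ± 0.11 (adjusted p = 5.89e-06) and by 0.85 ± 0.15 against library 3 (adjusted p = 0.000451). DUSP4 fell by 0.69 ± 0.12 and stood at -0.52 ± 0.15 against library 3 (adjusted p = 0.0988), and DUSP7 at -0.54 ± 0.11 and -0.24 ± 0.15. DUSP6, a phosphatase of cytoplasmic ERK, had 17.3, 17.8 and 21.1 CPM at 0 h and 17.3, 17.9 and 16.8 CPM at 24 h, with overlapping times and a change of -0.11 ± 0.12 (adjusted p = 0.522) and of -0.28 ± 0.16 against library 3. SPRY2 was at -0.34 ± 0.11 (adjusted p = 0.014) and -0.42 ± 0.14 (adjusted p = 0.223). SPRY1 was the member called higher, from 1.40, 1.81 and 2.80 CPM to 2.94, 3.87 and 3.26 CPM, at 0.71 ± 0.24 and against library 3 at 0.25 ± 0.30. The wider calls of SPRY1 and SPRY2 were lost without library 1 at 0 h or library 2 at 24 h, and that of SPRY1 also without library 2 at 0 h.

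CCND1, the gene of cyclin D1, had 579, 503 and 389 CPM at 0 h and 278, 303 and 297 CPM at 24 h. It fell by 0.74 ± 0.13 (adjusted p = 4.8e-05), and against library 3 the change was -0.41 ± 0.16 (adjusted p = 0.333). MYC did not separate the times, with 1464, 1313 and 1908 CPM at 0 h and 1619, 1694 and 1756 CPM at 24 h, and changes of 0.11 ± 0.14 and -0.18 ± 0.19. The cytokine gene LIF and the transcription factor gene ETS2 were called lower against library 3 only, at -1.0 ± 0.21 (adjusted p = 0.00712) and -0.38 ± 0.10 (adjusted p = 0.0317). Their changes against all 3 libraries were -0.44 ± 0.19 and -0.12 ± 0.08.

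Among the ligands of the EGFR family 2 of 7 tested members fell with all libraries and 1 against library 3. In the wider reading 14.4% of all genes were lower. HBEGF, the heparin-binding ligand, had 42.6, 34.1 and 58.9 CPM at 0 h and 22.9, 22.9 and 23.6 CPM at 24 h. The 24 h libraries were nearly equal and all below 0 h, and HBEGF fell by 0.97 ± 0.13 (adjusted p = 9.68e-07) and by 1.35 ± 0.14 against library 3 (adjusted p = 1.95e-08). TGFA was at -0.44 ± 0.13 (adjusted p = 0.0141) and -0.39 ± 0.19 (adjusted p = 0.519), and its wider call was lost without library 1 at 0 h or library 3 at 24 h. EREG and NRG1 were not called, at -0.31 ± 0.19 and -0.17 ± 0.08 with all libraries and -0.41 ± 0.26 and -0.01 ± 0.11 against library 3. EGFR itself had 181, 111 and 90.7 CPM at 0 h and 84.4, 84.5 and 81 CPM at 24 h. Its change of -0.61 ± 0.16 (adjusted p = 0.00601) was lost without library 1, and against library 3 it was -0.12 ± 0.19 (adjusted p = 0.931).

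Immediate early genes split in both directions (all genes in the wider reading: 10.8% higher and 14.4% lower). Of 29 tested, 5 rose and 9 fell with all libraries (median 0.07), and 2 rose and 5 fell against library 3 (median -0.22). The risers numbered 3 without library 1 at 0 h and 8 without library 3 at 0 h. FOS, a subunit of the AP-1 factor, had 14.5, 13.8 and 9.87 CPM at 0 h and 66.2, 72.7 and 83.4 CPM at 24 h. Every 24 h library was above every 0 h library by a wide margin, and FOS rose by 2.55 ± 0.29 (adjusted p = 1.92e-07) and by 2.91 ± 0.47 against library 3 (adjusted p = 0.000325). Under the naming rule this was the largest rise called in both readings. ZFP36, which binds AU-rich mRNAs for decay, had 5.06, 3.08 and 4.71 CPM and then 10.4, 11.6 and 11.2 CPM. It rose by 1.36 ± 0.19 (adjusted p = 1.7e-06) and by 1.23 ± 0.26 against library 3 (adjusted p = 0.00556).

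Their usual companions were less clear. EGR1, a zinc finger factor, had 281, 281 and 176 CPM at 0 h and 394, 382 and 436 CPM at 24 h, with no overlap, yet its change of 0.72 ± 0.28 missed the threshold (adjusted p = 0.0558), as did that of 1.20 ± 0.42 against library 3 (adjusted p = 0.256). FOSB overlapped between the times and was at 0.41 ± 0.27 and, against library 3, 1.16 ± 0.38, not called. JUN and IER2 rose by 0.42 ± 0.13 and 0.67 ± 0.17, and against library 3 were at 0.29 ± 0.19 and 0.43 ± 0.25, not called. Both wider calls were lost without library 1 at 0 h, and that of JUN also without library 2 at 0 h and libraries 2 and 3 at 24 h. JUNB was not called in either reading (0.29 ± 0.17 and 0.25 ± 0.25). BTG2, an antiproliferative gene, rose by 0.83 ± 0.22 and stood at 1.01 ± 0.32 against library 3 (adjusted p = 0.156).

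Members that fell included EGR3, KLF10 and ATF3. EGR3 went from 4.63, 1.94 and 3.44 CPM to 1.13, 1.10 and 1.09 CPM, a fall of 1.59 ± 0.34 (adjusted p = 0.000709) and against library 3 of 1.63 ± 0.41 (adjusted p = 0.0348). KLF10, a target of TGF-beta, fell by 0.49 ± 0.11 and 0.77 ± 0.14. ATF3, a stress-induced factor, had 8.35, 8.23 and 16.6 CPM at 0 h and 7.99, 7.73 and 7.27 CPM at 24 h. Library 3 held a level apart from the other 5 libraries, and the wider call (-0.55 ± 0.17) was lost without it. Against it alone the fall was 1.12 ± 0.16. GADD45B was also highest in library 3, with 51.2, 60.2 and 202 CPM at 0 h and 84.2, 98.5 and 104 CPM at 24 h. Here, though, libraries 1 and 2 at 0 h lay below all 24 h libraries. The change of GADD45B was -0.13 ± 0.28 with all libraries (not called), 0.78 without library 3 at 0 h and -1.08 ± 0.23 against library 3. SRF fell by 0.68 ± 0.11, KLF6 by 0.57 ± 0.09 and the survival gene MCL1 by 0.32 ± 0.08, and against library 3 they were at -0.46, -0.41 and -0.25, not called.

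CSRNP1, a nuclear protein gene in none of the lists, had 80.8, 77.3 and 73.5 CPM at 0 h and 33.1, 32.9 and 34.5 CPM at 24 h. The libraries of each time were close together, and CSRNP1 fell by 1.20 ± 0.10 (adjusted p = 7.14e-12) and by 1.13 ± 0.13 against library 3 (adjusted p = 9.74e-08).

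Early targets of BMP, TGF-beta and Notch moved in both directions (all genes in the wider reading: 10.8% higher and 14.4% lower). Of 21 tested 6 rose and 8 fell, and against library 3 alone 1 rose and 2 fell, with medians of -0.08 and -0.09. Without library 1 at 0 h 1 rose and 5 fell, and without library 2 or 3 at 24 h 3 rose. HES1, the repressor induced by Notch, had 44, 52.6 and 70.7 CPM at 0 h and 127, 160 and 144 CPM at 24 h. The times did not overlap, and HES1 rose by 1.36 ± 0.16 (adjusted p = 2.27e-07) and by 1.02 ± 0.23 against library 3 (adjusted p = 0.0117). The related HEY1 was not called (0.13 ± 0.21 and 0.00 ± 0.29), HES4 rose by 1.01 ± 0.32 with an overlap and stood at 0.36 ± 0.42 against library 3, and HEYL fell by 0.74 ± 0.18 and stood at -0.48 ± 0.23. Both wider calls were lost without library 1 at 0 h, and that of HES4 also without library 2 at 0 h and libraries 2 and 3 at 24 h.

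SMAD7, the inhibitor that TGF-beta receptors induce against themselves, had 70.9, 63.5 and 96.2 CPM at 0 h and 34.8, 39.3 and 44.8 CPM at 24 h. It fell by 0.96 ± 0.13 (adjusted p = 9.95e-07) and by 1.28 ± 0.15 against library 3 (adjusted p = 3.09e-07). EDN1, the gene of the peptide endothelin 1, had 11.6, 14.3 and 17.1 CPM and then 7.65, 9.09 and 6.67 CPM. It fell by 0.89 ± 0.15 and 1.14 ± 0.18 in the wider and narrower reading. LTBP2, a matrix protein gene, fell by 0.72 ± 0.14 and PMEPA1, a TGF-beta target, by 0.46 ± 0.11. Against library 3 they were at -0.41 ± 0.17 and -0.40 ± 0.15, not called. Of the inhibitors of DNA binding, ID2 had 9.15, 8.77 and 19.9 CPM and then 23.7, 26.6 and 23.5 CPM, and ID3 51.6, 54.7 and 100.1 CPM and then 105, 126 and 127 CPM. In both, library 3 lay close to 24 h: the changes of 0.94 ± 0.23 and 0.79 ± 0.20 became 0.30 ± 0.26 and 0.26 ± 0.25, and both calls were lost without library 1 at 0 h.

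Some matrix, adhesion and keratin genes were lower at 24 h. Of 31 tested matrix and mesenchymal genes 8 fell and 1 rose (median -0.16), and against library 3 5 fell and 0 rose (median -0.23), against 14.4% and 0.678% called lower over all genes. THBS1, described above, is 1 of those 5. LAMB3, a laminin chain gene, fell by 0.57 ± 0.10 and stood at -0.41 ± 0.12 (adjusted p = 0.116). LOX, which crosslinks collagen, fell by 0.75 ± 0.09 and 0.51 ± 0.11, and ITGA5, the fibronectin receptor subunit, by 0.49 ± 0.07 and 0.38 ± 0.08. ITGB3, an integrin subunit gene named by the rule for large changes, had 85.8, 55.5 and 44 CPM and then 34.5, 25.1 and 27.4 CPM, a fall of 1.08 ± 0.13 and 0.60 ± 0.14.

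Of 25 tested keratin and junction genes 8 fell and 0 rose, and 2 fell and 0 rose against library 3. The wider shares over all genes were 14.4% lower and 10.8% higher. Without libraries 1 and 2 at 0 h in turn, 4 and 5 fell. KRT17, a keratin of activated epithelium, had 79, 93.8 and 47.1 CPM at 0 h and 22.5, 30.2 and 29.3 CPM at 24 h. It fell by 1.42 ± 0.16 (adjusted p = 7.69e-08) and by 0.79 ± 0.18 against library 3 (adjusted p = 0.0128). KRT80 fell by 0.73 ± 0.09 and 0.46 ± 0.11. KRT8, the main simple-epithelial keratin with KRT18, had 4810, 5551 and 3066 CPM and then 3180, 3045 and 3496 CPM, so that library 3 lay within the 24 h range and the change went from -0.47 ± 0.14 to 0.08 ± 0.17, with the call lost without library 1 or 2 at 0 h or library 2 at 24 h. MYH16, a myosin heavy chain gene that is inactivated in humans, fell by 1.51 ± 0.17 and 1.02 ± 0.21. MGP, the matrix Gla protein, rose from 6.71, 7.80 and 11.1 CPM to 24.1, 21.9 and 19.6 CPM, by 1.35 ± 0.19 (adjusted p = 1.85e-06) and by 0.98 ± 0.25 against library 3 (adjusted p = 0.0381).

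DDIT4 rose in both readings. This inhibitor of the growth kinase complex mTORC1 had 59.9, 67.5 and 59 CPM at 0 h and 136, 126 and 137 CPM at 24 h. The 3 libraries at 0 h were within a narrow range of each other, and DDIT4 rose by 1.10 ± 0.10 (adjusted p = 2.62e-10) and by 1.17 ± 0.15 against library 3 (adjusted p = 9.1e-07). It stands in the hypoxia list and in the ATF4 list, whose other called members were mostly lower: of 37 hypoxia and glycolysis genes 14 fell and 1 rose (1 and 1 against library 3), and of 35 ATF4 and CHOP genes 11 fell and 4 rose (3 and 1). Over all genes 14.4% were lower and 10.8% higher, so the share of ATF4 genes that rose was near the background. Without library 1 at 0 h 7 hypoxia genes and 7 ATF4 genes fell, and without library 2 at 0 h or 24 h 9 and 8 hypoxia genes. HK1 and SLC2A1, of glucose uptake and phosphorylation, fell by 0.61 ± 0.11 and 0.41 ± 0.08 and stood at -0.22 and -0.36 against library 3, not called.

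IRS2, the adaptor of the insulin receptor, had 113, 65 and 100.8 CPM at 0 h and 34.3, 47.4 and 49.2 CPM at 24 h. It fell by 1.09 ± 0.18 (adjusted p = 6.77e-05) and by 1.21 ± 0.22 against library 3 (adjusted p = 0.00164). Of 28 genes that FOXO factors induce when PI3K is off, 5 rose and 8 fell, and 1 rose and 3 fell against library 3. Over all genes 10.8% were higher and 14.4% lower in the wider reading. Without library 1 at 0 h 2 rose and 4 fell, without library 3 at 0 h 8 rose, and without library 2 at 24 h 5 fell. The riser in both readings was CDKN1B, described below with the cell cycle. CCNG2, an atypical cyclin, rose by 0.69 ± 0.13 and stood at 0.60 ± 0.18 against library 3 (adjusted p = 0.146), and BCL6, a repressor, fell by 0.41 ± 0.10 and 0.62 ± 0.12. DEPP1, a FOXO-induced gene outside that list, rose from 8.90, 8.59 and 9.87 CPM to 18.3, 15.9 and 18 CPM, by 0.93 ± 0.15 and 0.82 ± 0.21.

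Of 32 tested cholesterol and fatty acid genes 14 fell and 1 rose with all libraries, and 1 fell and 0 rose against library 3. Only 6 fell without library 1 at 0 h. The shares over all genes in the wider reading were 14.4% lower and 10.8% higher. SCD, the desaturase of stearate, had 756, 761 and 565 CPM at 0 h and 429, 397 and 394 CPM at 24 h, with no overlap. Its change was -0.77 ± 0.13 with all libraries and -0.47 ± 0.17 against library 3, and that of DHCR7, a late enzyme of cholesterol synthesis, -0.69 ± 0.12 and -0.29 ± 0.14.

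Cell cycle inhibitors moved apart. CDKN1B, the gene of p27, had 34.1, 34.8 and 37.1 CPM at 0 h and 57.8, 53.5 and 55.8 CPM at 24 h, with libraries of each time close together. It rose by 0.66 ± 0.08 (adjusted p = 7.44e-08) and by 0.59 ± 0.11 against library 3 (adjusted p = 0.00106). CDKN1A, the gene of p21, had 59.4, 50.3 and 63.2 CPM and then 43.2, 38.7 and 43.4 CPM. It fell by 0.47 ± 0.08 (adjusted p = 6.96e-05) and by 0.60 ± 0.10 against library 3 (adjusted p = 0.000199). SKP2, of the ligase that degrades p27, rose by 0.42 ± 0.09 and stood at 0.42 ± 0.13 against library 3 (adjusted p = 0.151), while CDKN2A went from 0.67 ± 0.16, a call lost without library 1 at 0 h, to 0.19 ± 0.17.

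Genes of cell division were called about as often as all genes. Of 38 genes of DNA replication 7 rose and 3 fell, of 38 of mitosis 6 rose and 4 fell, and against library 3 alone 0 of either list were called (all genes: 10.8% higher and 14.4% lower, and 0.931% against library 3). UBE2C, a ubiquitin-conjugating enzyme of mitosis, had 88.9, 127 and 203 CPM at 0 h and 234, 272 and 261 CPM at 24 h, and its change went from 0.87 ± 0.14 to 0.33 ± 0.14. The 3 libraries at 0 h thus spread over more than did those at 24 h.

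Of 26 p53 targets 6 fell and 3 rose, and against library 3 alone 6 fell and 0 rose. Beside them, 14.4% of all genes were lower and 10.8% higher in the wider reading. The narrower shares over all genes, given above, were far smaller. Without library 1 or 2 at 0 h 1 rose. The medians of -0.13 and 0.03 differ in sign. The 6 called lower against library 3 were CDKN1A, AEN, PLK2, SESN2, GADD45A and TNFRSF10B. AEN, an exonuclease gene, had 66.8, 63.7 and 66.6 CPM and then 40.2, 37.8 and 45.4 CPM. The times did not overlap, and AEN fell by 0.67 ± 0.10 and 0.69 ± 0.14, PLK2, a polo-like kinase gene, by 0.58 ± 0.09 and 0.61 ± 0.12, and SESN2, a stress-induced inhibitor of mTORC1, by 0.67 ± 0.11 and 0.59 ± 0.14.

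**Figure D3:**
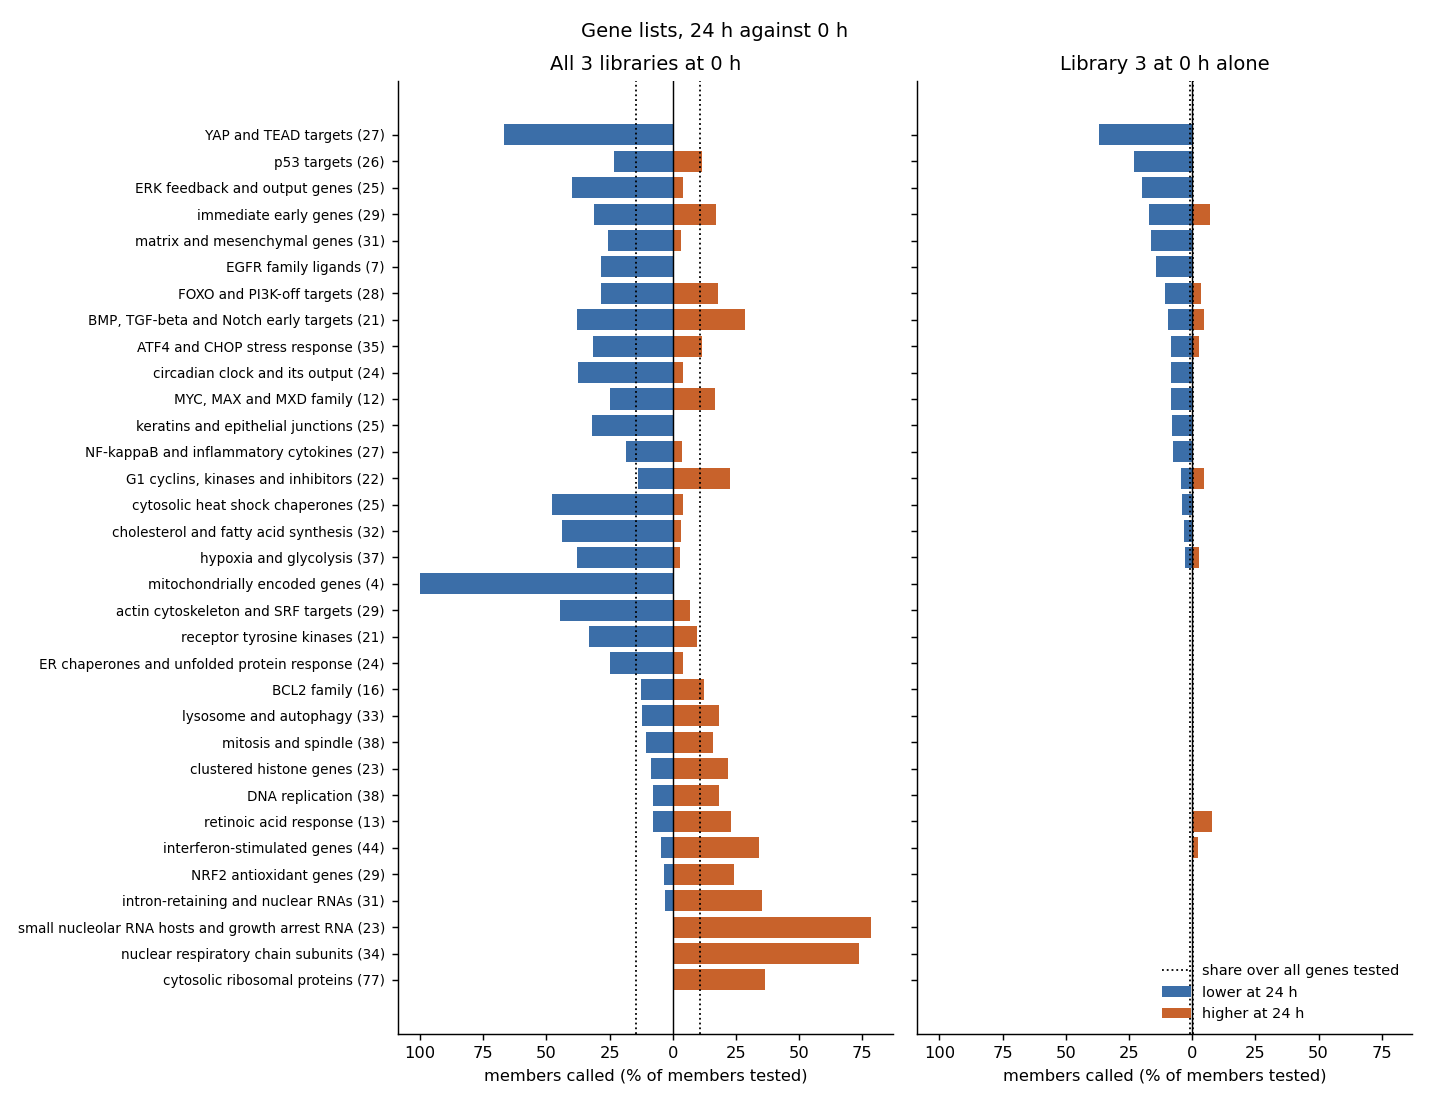
Share of tested members (number in brackets) called lower (blue, drawn to the left) and higher (orange, to the right) at 24 h in the 33 pathway lists, against all 3 libraries at 0 h and against library 3 alone, with dotted lines at the share over all genes tested. Against library 3 alone 10 of 27 YAP and TEAD targets were lower, where the share over all genes is 0.678%, and 0 ribosomal protein genes, snoRNA hosts or respiratory chain subunits were higher, where it is 0.253%.

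Clock, inflammatory and retinoid genes held single clear members (all genes in the wider reading: 14.4% lower and 10.8% higher). NOCT, a gene under circadian control, had 47.7, 39.9 and 22.9 CPM at 0 h and 11.52, 12.44 and 12.59 CPM at 24 h. The times did not overlap, although library 3 was the lowest at 0 h, and NOCT fell by 1.59 ± 0.16 (adjusted p = 5.39e-09) and by 0.91 ± 0.18 against library 3 (adjusted p = 0.00182). PER1, a clock repressor that serum also induces, had 39.1, 31.6 and 37.4 CPM and then 20.5, 22 and 25.3 CPM. It fell by 0.67 ± 0.13 and 0.73 ± 0.17 (adjusted p = 0.000274 and 0.0228). Of 24 clock genes 9 fell and 1 rose (3 fell without library 1 at 0 h, 6 without library 2 at 0 h, and 5 without library 1 or 2 at 24 h), and against library 3 NOCT and PER1 were the 2 that fell and 0 rose. The riser was DBP, an output factor, at 0.61 ± 0.22, with 0.60 ± 0.31 against library 3. PER2 and ARNTL2 went from -0.58 and -0.62 to -0.05 and -0.31. The call of DBP was lost without library 1 or 3 at 0 h or 2 or 3 at 24 h, and that of PER2 without library 1 or 2 at 0 h or 1 at 24 h.

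Of 27 NF-kappaB and cytokine genes 5 fell and 1 rose, and 2 fell and 0 rose against library 3. Over all genes in the wider reading 14.4% were lower and 10.8% higher. Leaving out library 1 at 0 h gave 2 lower, and leaving out library 3 at 0 h 4 higher. TNFAIP3, the A20 inhibitor of NF-kappaB, had 22.4, 14.2 and 18.6 CPM and then 9.02, 10.1 and 10.0 CPM. It fell by 0.92 ± 0.15 (adjusted p = 3.55e-05) and by 0.94 ± 0.19 against library 3 (adjusted p = 0.00348). PTGS2, the gene of cyclooxygenase 2, had 6.77, 4.54 and 7.56 CPM and then 3.33, 2.90 and 3.20 CPM, a fall of 1.00 ± 0.23 and 1.26 ± 0.30. Some calls of this kind rested on library 1 at 0 h: IL1B had 12.3 CPM there and 0.0644 to 0.344 CPM in the other 5 libraries, and CXCL8 18.2 CPM against 3.85 to 4.71 CPM. Both calls were lost without that library, and that of CXCL8 also without any 1 of the 24 h libraries.

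Among the 44 genes that interferon induces, 15 rose and 2 fell, and against library 3 1 rose and 0 fell. The risers numbered 8 without library 1 at 0 h and 9 without library 2 at 0 h. For this list and the next, the wider shares over all genes were 10.8% higher and 14.4% lower. The member called in both readings was OASL, an antiviral gene, with 36.5, 37.5 and 34 CPM at 0 h and 55.6, 59.5 and 53.8 CPM at 24 h. It rose by 0.65 ± 0.10 (adjusted p = 1.69e-05) and by 0.73 ± 0.15 against library 3 (adjusted p = 0.00308). ISG15 was at 0.50 ± 0.12 and 0.50 ± 0.16 (adjusted p = 0.167 in the narrower reading), with the wider call lost without library 1 at 0 h, and IFI44 at 0.70 ± 0.14 and 0.32 ± 0.17. In the retinoic acid list, 3 of 13 rose and 1 fell, and 1 rose against library 3. CRABP2, the carrier that brings retinoic acid to its receptor, had 27, 34.1 and 59.7 CPM and then 97.6, 112 and 124 CPM. It rose by 1.46 ± 0.16 (adjusted p = 3.62e-08) and by 0.89 ± 0.17 against library 3 (adjusted p = 0.00124). STRA6, the retinol transporter, and RARRES3 rose by 0.74 ± 0.17 and 1.02 ± 0.22 and were at 0.70 ± 0.25 and 0.67 ± 0.30 against library 3, not called.

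The other large changes called in both readings were of genes in none of the lists. ARID5B, a DNA-binding regulator, had 63.5, 52.7 and 39.8 CPM and then 27.1, 25.5 and 21 CPM, a fall of 1.08 ± 0.14 and 0.70 ± 0.18. The zinc finger genes ZNF230 and ZNF823 rose by 1.08 ± 0.17 and 0.84 ± 0.14, and by 1.13 ± 0.24 and 0.96 ± 0.21 against library 3. C10orf143, ZSWIM3 and WDR5B, a paralogue of the histone methyltransferase subunit WDR5, rose by 0.88 ± 0.16, 0.86 ± 0.16 and 0.83 ± 0.14, and by 1.00 ± 0.23, 1.17 ± 0.22 and 0.79 ± 0.20. These 5 had at most 10.1 CPM in any of the 6 libraries. MNT, a repressor that pairs with MAX, was the member of the MYC and MAX family called against library 3, at -0.72 ± 0.15 (adjusted p = 0.00426), with -0.37 ± 0.13 in the wider reading, a call lost without library 1 or 3 at 0 h or 1 or 2 at 24 h.

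Several lists with many calls had none, or 1, against library 3. Of 77 cytosolic ribosomal protein genes 28 rose and 0 fell (all genes: 10.8% higher and 14.4% lower). Of 34 nuclear-encoded respiratory chain subunits 25 rose and 0 fell, and of 23 host genes of small nucleolar RNAs 18 rose and 0 fell. Against library 3 alone 0 members of each of these lists were called in either direction, which is near the 0.253% called higher over all genes and shows nothing particular to them. Without library 1 at 0 h the members higher were 1, 16 and 4 in the same order, and without library 2 at 0 h and library 2 at 24 h the snoRNA hosts gave 9 and 10. The snoRNA hosts summed to 655, 880 and 1338 CPM at 0 h and 1392, 1502 and 1436 CPM at 24 h, so library 3 lay just under 24 h. The respiratory chain subunits summed to 4642, 5949 and 6375 CPM and then 7188, 7321 and 7720 CPM, and library 3 was again the nearest to 24 h. The ribosomal protein genes summed to 73220, 94580 and 83130 CPM at 0 h and 93460, 92090 and 95970 CPM at 24 h, so there library 2 at 0 h lay within the 24 h range and above library 3. Libraries 1 and 2 at 0 h are those with RNR2 at 14100 and 20090 CPM, against 4906 CPM in library 3 and 5150 to 6168 CPM at 24 h. Ribosomal protein genes have many near-identical pseudogenes, so their counts are uncertain.

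SNHG19, a snoRNA host, had 4.02, 4.90 and 20.9 CPM at 0 h and 26.8, 33.1 and 35.1 CPM at 24 h. Its change of 1.63 ± 0.29 (adjusted p = 0.000204) became 0.60 ± 0.21 against library 3 (adjusted p = 0.264). ZNF767P, RSRP1, CLK1, a splicing kinase gene, SNHG12 and SPACA6 followed it, at 1.61, 1.52, 1.28, 1.28 and 1.28 with all libraries and 0.78, 0.78, 0.70, 0.35 and 0.66 against library 3. NDUFA2, a subunit of complex I, had 48.8, 71.3 and 87.6 CPM and then 111, 115 and 121 CPM, and its change went from 0.74 ± 0.11 to 0.40 ± 0.11 (adjusted p = 0.0767). For UQCR11, of complex III, the values were 0.71 ± 0.12 and 0.29 ± 0.12, and for RPLP2 0.51 ± 0.12 and 0.14 ± 0.13. The calls of SNHG12 and RPLP2 were lost without library 1 at 0 h.

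In the opposite direction, 12 of 25 heat shock chaperone genes fell and 1 rose (1, HSPB8, and 0 against library 3), 13 of 29 actin and SRF genes fell and 2 rose (0 and 0), and 21 receptor tyrosine kinases gave 7 lower and 2 higher calls (0 and 0). In the wider reading 14.4% of all genes were lower and 10.8% higher. MYH9, the heavy chain of non-muscle myosin, had 5811, 5136 and 3200 CPM and then 2364, 2688 and 2807 CPM. Its change went from -0.85 ± 0.14 to -0.29 ± 0.16. The chaperone gene DNAJB1 went from -0.55 ± 0.10 to -0.18 ± 0.12, and the receptor gene TYRO3 from -0.70 ± 0.12 to -0.16 ± 0.13. By the naming rule, which asks for no overlap, the largest falls called only in the wider reading were SLAMF7 (-1.32 and -0.77 against library 3), LCP1 (-1.14 and -0.43), CLDN11 (-1.14 and -0.18), ZNF121 (-1.13 and -0.56), CMTM1 (-1.05 and -0.72) and ELMSAN1 (-1.0 and -0.43). The sources used here do not say whether reads were assigned by strand. If they were not, a gene cannot be told from one that overlaps it on the other strand.

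**Figure D4:**
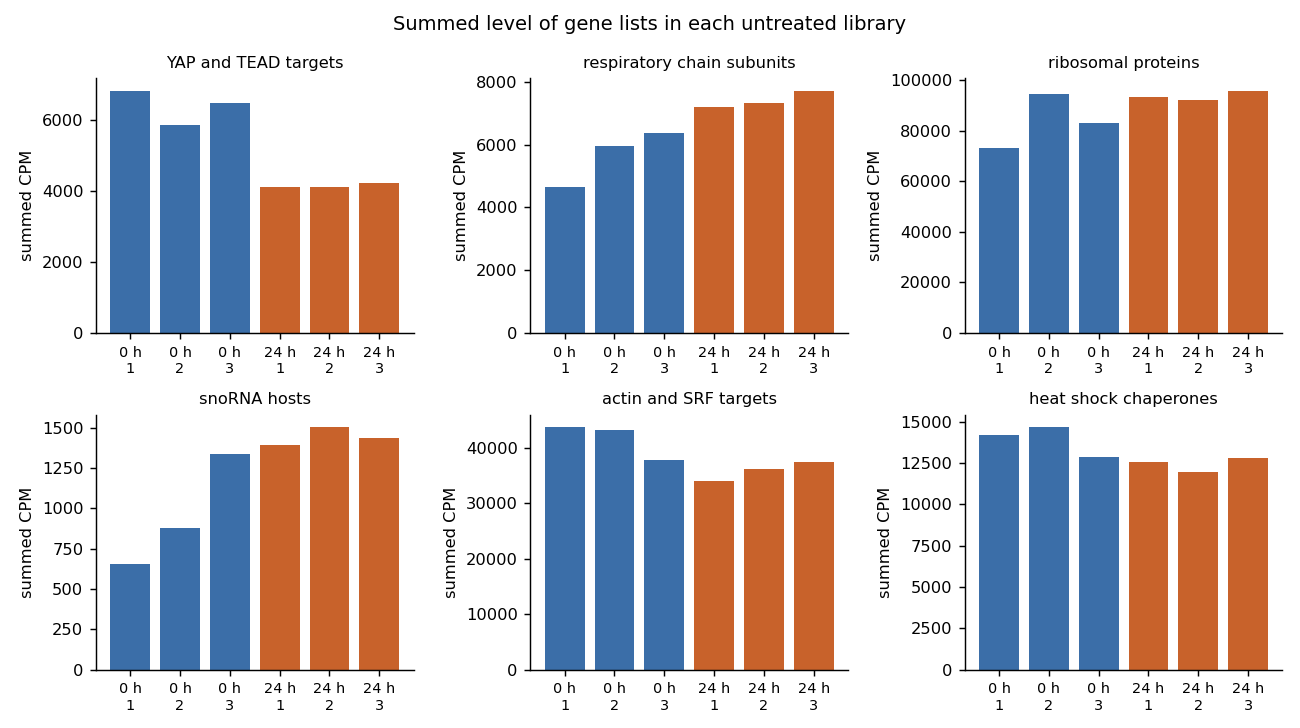
Summed CPM of 6 gene lists in each untreated library, 0 h in blue and 24 h in orange, on linear axes from 0. Abundant members weigh most in each sum. YAP and TEAD targets were at 5847 CPM or more in every 0 h library and at 4227 CPM or less at 24 h, while the snoRNA hosts of library 3 at 0 h, at 1338 CPM, lay close to the 24 h libraries.

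The 14 treated groups were all taken at 24 h and each also received an agent. Their levels therefore cannot separate time from treatment. DDIT4 averaged 62.1 ± 4.67 CPM (SD, n = 3) at 0 h and 133 ± 6.0 CPM at 24 h, and 114 to 381 CPM in the treated groups, above 0 h in each. CTGF averaged 199 ± 103 CPM at 0 h and 90.4 ± 2.69 CPM at 24 h and was at 24.9 to 78.1 CPM in the treated groups, below both. HES1 averaged 55.7 ± 13.7 CPM at 0 h and 143.4 ± 16.5 CPM at 24 h, and 32.5 to 152 CPM in the treated groups. With YFSJ alone it was at 63.9 ± 10.1 and 64.8 ± 6.37 CPM, with gefitinib alone at 57.6 ± 2.14 and 53.5 ± 8.47 CPM, and with 2 mg/mL CKI and 75 µM gefitinib at 152 ± 17.3 CPM. CRABP2 was highest in untreated cells at 24 h, at 111 ± 13.0 CPM, against 28.4 to 80.5 CPM in the treated groups and 40.3 ± 17.2 CPM at 0 h.

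FOS was at 12.7 ± 2.48 CPM at 0 h and 74.1 ± 8.69 CPM at 24 h, and at 14.5 to 149 CPM in the treated groups. YFSJ alone had 19.2 ± 1.05 and 14.5 ± 0.337 CPM, close to 0 h. With gefitinib alone FOS was at 103 ± 5.21 and 92.2 ± 6.15 CPM, and with 5 mg/mL YFSJ and 50 µM gefitinib at 149 ± 47.9 CPM. SPRY4 was at 24.4 ± 2.84 CPM at 0 h and 7.80 ± 0.410 CPM at 24 h, at 2.80 ± 0.569 CPM with 50 µM gefitinib and at 24.8 ± 2.02 CPM with 2 mg/mL CKI. CDKN1B was at 35.4 ± 1.53 CPM at 0 h and 55.7 ± 2.14 CPM at 24 h, and at 53.6 to 75.1 CPM in the treated groups, above 0 h in each. SMAD7 was at 76.9 ± 17.2 CPM at 0 h and 39.6 ± 5.01 CPM at 24 h, with 41.6 to 79.2 CPM in the treated groups. No treated group was tested against 0 h here, and these levels are given as values.

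**Figure D5:**
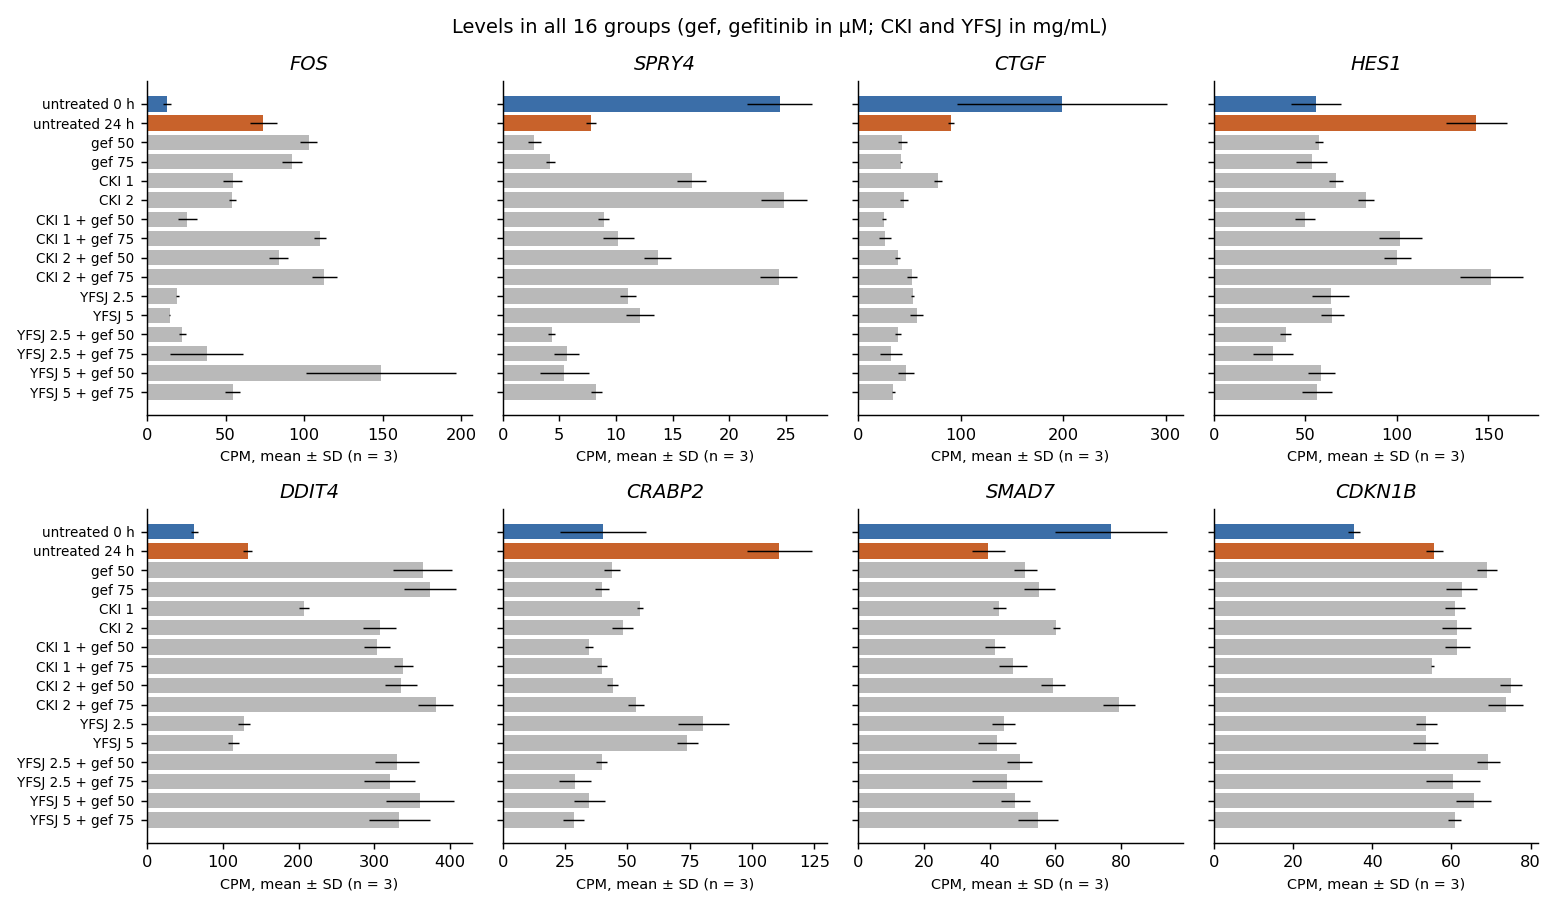
Mean CPM of 8 genes in all 16 groups, with error bars of 1 SD over 3 libraries, untreated 0 h in blue, untreated 24 h in orange and the treated groups in grey. DDIT4 was above its 0 h level of 62.1 CPM in every group taken at 24 h, and CTGF was below its untreated 24 h level of 90.4 CPM in every treated group.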

How the data were processed

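RNA from H1975 cells was extracted with a PureLink RNA Mini kit and made into libraries with a NEBNext Ultra RNA kit, per the labels' protocols. The authors deposited raw counts per gene symbol for 48 libraries, after Trim Galore 0.4.2 and STAR 2.5.3a on hg19, per the submitters' processing notes, which also name edgeR. The counting tool, annotation and strand setting are not given in the sources used here. No library was left out of the main model. The 6 untreated libraries were compared in a model of all 48 libraries with 1 mean for each of 16 groups (edgeR 4.0.16 quasi-likelihood, TMM factors, R 4.3.3), which left 32 residual degrees of freedom. Of 27978 symbols 15789 passed filterByExpr (min.count 10, min.total.count 15). These hold 99.9684% of the counts. P-values were adjusted over them by Benjamini and Hochberg, and the SE is the log2 change over the square root of F. CPM use TMM-scaled library sizes. Depth is given in the report, and lists are described by counts and medians without a test of their own.

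Named genes were the 12 largest rises and falls among called genes whose higher time averaged 5 CPM or more, with no overlap and a call against library 3 alone, the 6 largest of each that lacked that call, and, of each list, up to 4 members of smallest p and others that complete a family. Some genes that this rule names are not reported here. Members and lists were chosen with earlier results of these data known. Alternatives were relative log expression factors, library-size scaling, DESeq2 1.42.0, other filters, a replicate block, smaller fits, GC and length corrections, each library left out and a stricter threshold. Tests were checked on simulated data in which all libraries varied alike, so that check does not cover 0 h libraries that stand apart. Deviations of libraries with the same number correlated at 0.207, -0.148 and 0.0486, and those with different numbers at -0.265 to 0.26. Libraries 1 and 2 at 0 h deviated together from library 3, so these values cannot tell whether the numbers pair the samples. The main model has no pairing. Promoter sequences are from RefSeq for GRCh38.p14, matched by symbol, and no coordinates of hg19 are used.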

Additional observations from a re-analysis of the deposited data

How the results depend on the processing

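The count of 3980 genes stayed within 1.5 times under the other normalizations, DESeq2, both count filters, and the GC and length corrections. It was 93 in a fit of only the 6 untreated libraries, 147 against library 3 at 0 h alone, 2089 at an adjusted p under 0.01 and 1070 to 6029 with each library left out. The count of 147 became 299 with the GC correction and 83 at an adjusted p under 0.01, and 100 to 128 with each 24 h library left out. The replicate block gave 3882 and 130 calls, and changed no call among the 133 genes followed. A fit of the 6 untreated libraries with the replicate block, chosen after seeing the data, gave 758. Of the 133 genes, 67 kept their direction but lost their call against library 3 alone, and KRT8, RNR2 and RNR1, which reversed, lost it too. In the fit of only the 6 untreated libraries, 86 lost it.

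Direction reversed without library 3 at 0 h in GADD45A (0.09), ETS2 (0.04) and GADD45B (0.78), whose values without library 1 at 0 h, the lowest with any single library left out, were -0.80, -0.22 and -0.46, and against library 3 alone in MYC (-0.18), KRT8 (0.08), RNR2 (0.22) and RNR1 (0.36). The cause was not tested. In the reading against library 3 alone a single library stands for 0 h, so its SE are borrowed from the spread of other groups, and genes near the floor of 3 counts are the least certain.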
